A study of Mus musculus with 2 samples.

Results

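The genes described here encode the enzymes that add methyl groups to lysines of histones (writers) and take them off (erasers), together with their close SET-domain relatives. They were read in primary mouse cells labelled megakaryocyte-erythroid progenitors (MEP), a cell type known as the precursors of red cells and of platelet-forming megakaryocytes. Members were chosen by symbol and not by value: protein-coding autosomal genes named Kmt, Kdm, Setd, Nsd, Ehmt, Suv39h or Dot1l. Of 46 symbols of that form, 39 were members, 4 lay on a sex chromosome, 2 were not annotated as protein-coding and 1 was left out by the rule. These 39 stand among 43346 annotated genes in the tables, of which 20337 were autosomal and protein-coding. By textbook role 20 members are writers, 14 are erasers and 5 are SET-domain proteins with no settled activity on histone lysines.

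Paired-end libraries were made from the poly(A) RNA of cells labelled adult female C57BL/6J, 5 weeks old, with no treatment or altered allele named. There was 1 group with 2 biological replicates, kept as separate biosamples under 1 donor identifier, so no condition is compared and no p-value is given. The labels call the cells negative for CD34 and name CD16/32 and lineage markers in the same phrase, without a sort purity. The libraries held 79539457 (replicate 1) and 65305321 (replicate 2) estimated counts on annotated genes. Of the markers that define the labelled type, all 8 erythro-megakaryocytic genes reached a TPM of 1 in both libraries, and none of the 3 T cell genes did. The 4 granulocyte and monocyte genes summed to 30661 TPM in replicate 1 and 16848 TPM in replicate 2, against 1088 and 1667 TPM for the erythro-megakaryocytic genes. Mpo, a granule enzyme of myeloid cells, had 10136 and 6523 TPM, while the erythroid factors Gata1 and Klf1 had 28.5 and 45.8 TPM and 123 and 124 TPM. These myeloid levels go against the label, so the cells are called by it here only as a name. Levels are given as TPM, the abundance of a gene's transcripts corrected for length and scaled to the same total in each library, with the SD between the 2 libraries.

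Methylation of histone tails is set by opposing enzymes. Most writers carry a SET domain; Dot1l does not. Most erasers use a JmjC domain that needs iron and 2-oxoglutarate, while a smaller group oxidises the methyl group with a flavin cofactor. Methylation of H3K4 marks promoters and enhancers, that of H3K36 and H3K79 the bodies of transcribed genes, and that of H3K9, H3K27 and H4K20 mostly silent or compacted chromatin. During red cell maturation the nucleus condenses, and H4K20 methylation by Kmt5a is known to take part in that step.

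Several abundant transcripts of these genes do not encode the full enzyme, and their sequences show where they depart from it. For the retained-intron transcripts below, lower case is exon shared with the longest coding form, capitals are intron left in the RNA, and all bases are on the plus strand of GRCm38, read 5′ to 3′ from GENCODE M21. Ehmt2-205 (chr17:34911016-34911095), Kdm5a-208 (chr6:120369015-120369094) and Kdm5b-202 (chr1:134605836-134605915) run through a 5′ splice site, and Kmt5a-203 (chr5:124451246-124451325) holds intron up to a 3′ splice site.
Ehmt2-205: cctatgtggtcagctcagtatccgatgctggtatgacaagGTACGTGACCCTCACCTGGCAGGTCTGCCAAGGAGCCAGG
Kdm5a-208: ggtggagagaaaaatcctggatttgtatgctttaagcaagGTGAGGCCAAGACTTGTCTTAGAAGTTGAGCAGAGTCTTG
Kdm5b-202: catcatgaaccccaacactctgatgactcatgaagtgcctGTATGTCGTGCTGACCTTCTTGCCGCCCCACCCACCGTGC
Kmt5a-203: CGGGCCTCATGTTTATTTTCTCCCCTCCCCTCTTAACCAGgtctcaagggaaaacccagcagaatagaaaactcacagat

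The short coding forms of Nsd3 and Kdm2b differ from the long forms by other exons. Each line holds 60 coding bases around the point where the forms part, with shared exon in lower case and the unshared exon in capitals. The Nsd3 lines are on the plus strand of chromosome 8 and end in different exons, at 25676732 for Nsd3-208 and 25678745 for Nsd3-206. The Kdm2b lines are on the minus strand of chromosome 5 and begin in different exons, at 122900178 for Kdm2b-201 and 122921414 for Kdm2b-202.
Nsd3-208: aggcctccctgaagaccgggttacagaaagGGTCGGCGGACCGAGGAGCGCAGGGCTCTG
Nsd3-206: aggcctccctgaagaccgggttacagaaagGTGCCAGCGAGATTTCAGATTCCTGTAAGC
Kdm2b-201: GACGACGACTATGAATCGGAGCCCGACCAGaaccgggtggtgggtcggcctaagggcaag
Kdm2b-202: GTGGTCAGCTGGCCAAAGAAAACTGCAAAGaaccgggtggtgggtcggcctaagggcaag

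Nearly all of the genes were transcribed in these cells, counting all transcripts of a gene, coding or not. A TPM of 1 or more in both libraries was reached by 38 of 39 members, beside 48.1% of all autosomal protein-coding genes. The exception was Kdm4d, an H3K9 eraser. The median member stood at 14.95 ± 1.71 TPM (SD, n = 2), against 0.90 TPM over all 20337 genes. Among detected genes the medians lay close together, at 15.06 TPM for 38 members and 16.54 TPM for 9776 genes. Thus the members were more often detected than genes at large, while their middle level was that of an ordinary detected gene. They spread widely: 5 members averaged 100 TPM or more, 20 between 10 and 100 TPM, and 13 between 1 and 10 TPM.

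**Figure D1:**
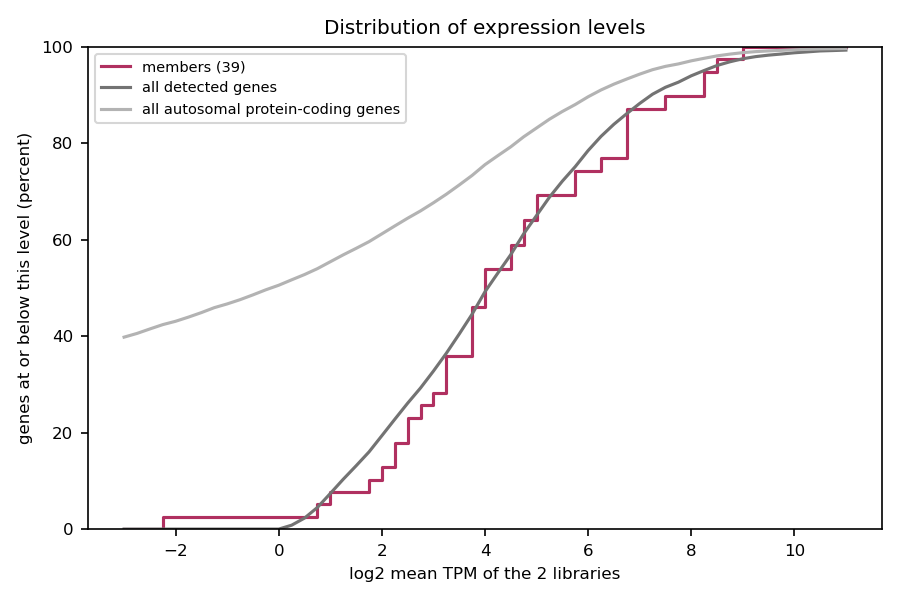
Cumulative share of genes (percent, vertical axis) by log2 mean TPM (horizontal axis) for the 39 members, for all detected genes and for all autosomal protein-coding genes. The line of the members follows that of the detected genes, with medians of 14.95 and 16.54 TPM.

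The order of the levels was firm only in places. Of 38 neighbouring pairs in the order by mean TPM, 10 kept their order in both libraries with TPM intervals that did not overlap, and 18 turned round between libraries. The steps that held included Ehmt2 above Kmt5c, Kmt5a above Dot1l, Dot1l above Setd1a, Setd5 above Kmt2d, Ehmt1 above Kmt2e, and Kdm7a above Kdm4d. Neighbours such as Kmt5c and Kdm6b, or Setd1a and Setd1b, could not be ranked. The intervals are the authors' and cover quantification error within 1 library; the TPM of Kdm6b and of Setd1b lay outside its own interval in at least 1 library.

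**Figure D2:**
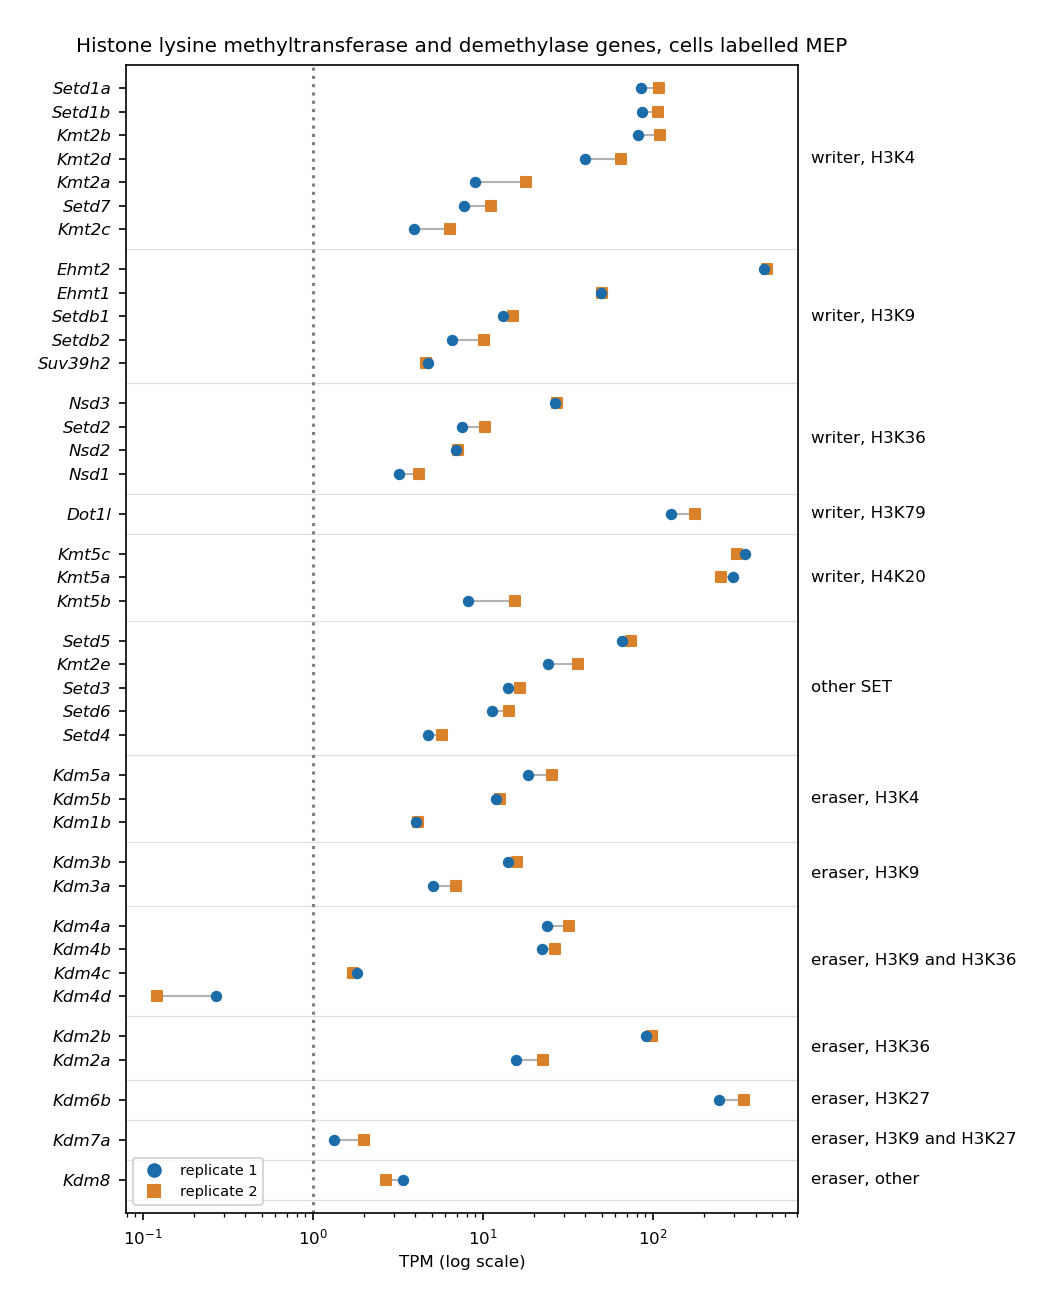
TPM on a log scale (horizontal axis) of each member in replicate 1 (circles) and replicate 2 (squares), grouped by role and histone lysine. The dotted line marks 1 TPM; Kdm4d alone lies below it, and Ehmt2 at 450 and 470 TPM lies farthest to the right.

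The H3K9 writers ranged from the top of the list to near its bottom. Ehmt2, also known as G9a, which places mono- and dimethylation on H3K9 (chr17:34898469-34914052), had 450 TPM in replicate 1 and 470 TPM in replicate 2 and was the highest member in both. Counting only full-length coding transcripts, defined below, it had 130 and 150 TPM, under Kdm6b, Kmt5c and Kmt5a in each library. Over all its transcripts, Ehmt2 ranked above 98.6% of all autosomal protein-coding genes. Its partner Ehmt1, also known as GLP, with which it forms a heterodimer, had 49.4 and 49.8 TPM. Setdb1, the trimethylating enzyme that the Trim28 repressor recruits, had 13.0 and 14.9 TPM. Setdb2, a related H3K9 enzyme, had 6.54 and 10.1 TPM. Suv39h2, which trimethylates H3K9 at pericentric heterochromatin, had 4.72 and 4.61 TPM, the lowest of the 5. Ehmt2 therefore made up most of the summed TPM of the H3K9 writers, which was 524 in replicate 1 and 550 in replicate 2.

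The H4K20 writers had the largest summed level of any mark, 651 TPM in replicate 1 and 580 TPM in replicate 2. Kmt5c, which places di- and trimethylation (chr7:4740115-4747514), had 349 and 313 TPM. Kmt5a, the enzyme that places the first methyl group and is tied to the cell cycle (chr5:124439930-124462308), had 295 and 252 TPM. Kmt5b, the paralog of Kmt5c, had 8.19 and 15.5 TPM and so lay far below both. Both Kmt5c and Kmt5a were higher in replicate 1. On full-length coding transcripts alone, defined below, the H4K20 writers summed to 371 and 354 TPM and the H3K4 writers to 265 and 359 TPM, so the first place was not kept in replicate 2.

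The H3K4 writers fell into a higher and a lower set. Setd1a, the catalytic subunit of a COMPASS complex at promoters, had 85.3 and 109 TPM. Setd1b, its paralog, had 85.5 and 107 TPM. Kmt2b, a writer that works with the menin subunit, had 81.3 and 109 TPM, and the order of these 3 turned between libraries. Kmt2d, which places monomethylation at enhancers, followed with 39.5 and 64.99 TPM. Kmt2a, the paralog of Kmt2b and a frequent partner in leukaemia fusions, had 8.99 and 17.8 TPM. Setd7, which monomethylates H3K4 and many other proteins, had 7.68 and 11.1 TPM. Kmt2c, the paralog of Kmt2d, was the lowest of the 7 at 3.90 and 6.39 TPM. All 7 had the higher TPM in replicate 2.

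The H3K79 writer Dot1l, the only known enzyme for its mark (chr10:80755206-80795461), had 128 and 177 TPM and ranked above 95.3% of genes. The H3K36 writers were lower. Nsd3, an enzyme for dimethylation of H3K36, had 26.4 and 27.1 TPM over all its transcripts. Setd2, the trimethylating enzyme that travels with RNA polymerase II, had 7.47 and 10.3 TPM. Nsd2, a paralog of Nsd3, had 6.88 and 7.07 TPM, and Nsd1, the remaining paralog, had 3.22 and 4.17 TPM.

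Among the erasers, Kdm6b stood alone at the top. Kdm6b, a JmjC enzyme that removes di- and trimethylation from H3K27 (chr11:69398508-69413675), had 245 TPM in replicate 1 and 341 TPM in replicate 2, above 97.6% of genes. Its X-linked paralog Kdm6a, outside the rule, had 9.13 and 11.7 TPM. Kdm2b, an H3K36 eraser that also brings a Polycomb complex to CpG islands (chr5:122870665-122989823), had 90.9 and 98.8 TPM. Its paralog Kdm2a had 15.6 and 22.6 TPM. Kdm7a, which acts on H3K9 and H3K27, had only 1.32 and 2.00 TPM.

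The Kdm4 family, which removes trimethylation from H3K9 and, for most members, from H3K36, covered a wide range. Kdm4a had 23.9 and 31.8 TPM and Kdm4b had 22.2 and 26.5 TPM, with intervals that overlapped in both libraries. Kdm4c had 1.82 and 1.72 TPM. Kdm4d (chr9:14462548-14500482) had 0.27 and 0.12 TPM, from an estimated 35 and 12 reads. Kdm4a and Kdm4b thus held nearly all of the family's TPM.

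The erasers of H3K4 and of lower methylation states of H3K9 lay in the middle and lower part of the list. Kdm5a, an eraser of H3K4 di- and trimethylation, had 18.4 and 25.3 TPM. Its paralog Kdm5b had 11.9 and 12.5 TPM, while the X-linked Kdm5c, outside the rule, had 60.5 and 85.7 TPM. Kdm1b, a flavin-dependent H3K4 eraser known from oocytes (chr13:47043499-47085279), had 4.03 and 4.15 TPM. Kdm3b, an eraser of mono- and dimethylated H3K9, had 13.98 and 15.9 TPM. Its paralog Kdm3a had 5.09 and 6.88 TPM. Kdm8, a JmjC protein whose activity on histones is debated, had 3.40 and 2.70 TPM.

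Of the SET-domain relatives, Setd5, for which catalytic activity on histones is disputed, was the highest over all transcripts, at 66.0 and 74.3 TPM. Counting only full-length coding transcripts, defined below, Setd5 had 5.16 and 5.17 TPM, under Setd3, Kmt2e and Setd6 in each library. Kmt2e, a chromatin protein without known methyltransferase activity, had 23.9 and 36.1 TPM. Setd3, which methylates a histidine of actin, had 13.96 and 16.4 TPM. Setd6, which methylates the NF-κB subunit RelA, had 11.3 and 14.1 TPM. Setd4 had 4.74 and 5.72 TPM. The median of these 5 was 15.2 TPM, beside 20.4 TPM for the writers and 13.6 TPM for the erasers. On full-length coding transcripts, over the members that could be scored, these medians were 9.01, 11.2 and 5.05 TPM.

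Levels were also summed by mark for the writers and erasers of H3K4 and H3K36. The 7 H3K4 writers summed to 312 and 426 TPM, the 3 H3K4 erasers to 34.3 and 42.0 TPM. The X-linked H3K4 eraser Kdm5c, outside the rule, alone had 60.5 and 85.7 TPM, above that eraser sum. On full-length coding transcripts the H3K4 writers summed to 265 and 359 TPM and the erasers to 5.29 and 5.09 TPM. The latter sum is without Kdm5a, which could not be scored, as given below. For H3K36 the 4 writers summed to 44.0 and 48.7 TPM and the 2 erasers counted under H3K36 alone (Kdm2a and Kdm2b) to 106 and 121 TPM. With full-length coding transcripts alone, the H3K36 sums were 18.4 and 22.4 TPM for the writers and 18.9 and 23.2 TPM for Kdm2a and Kdm2b, close together. The 4 Kdm4 genes, most of which also act on H3K36, summed to a further 38.9 and 48.2 TPM of full-length transcripts and are not in the eraser sums above. A sum of RNA says nothing of enzyme activity, and the left-out and sex-linked enzymes are not in it.

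Paralogs and other genes that share a mark were set side by side in pairs. A pair was called when its log2 ratio kept its sign from library to library, averaged more than 1 in size and had TPM intervals that did not overlap in either library. This held for 11 of 18 pairs. No share of other gene pairs was computed; the middle 50% of detected genes ran from 5.37 to 53.3 TPM, and the count is given as a description. Kmt5c exceeded Kmt5b by a log2 ratio of 4.87 ± 0.76 (SD, n = 2), which is 29.3-fold. Kdm4a and Kdm4b exceeded Kdm4c by 3.95 ± 0.35 and 3.77 ± 0.24. Kmt2c lay below Kmt2d with a log2 ratio of -3.34 ± 0.004 (SD, n = 2). Ehmt2 exceeded Ehmt1 by 3.21 ± 0.04, a 9.27-fold ratio that moved little between libraries. Kmt2a lay below Kmt2b with a log2 ratio of -2.90 ± 0.39.

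The remaining called pairs were Nsd3 over Nsd1 at 2.87 ± 0.23, Kdm2b over Kdm2a at 2.33 ± 0.29, Nsd2 over Nsd3 at -1.94 ± 0.001, Suv39h2 over Setdb1 at -1.58 ± 0.16, and Kdm3b over Kdm3a at 1.33 ± 0.17. Setd1a and Setd1b were level, with a log2 ratio of 0.01 ± 0.02. The pairs not called also included Kdm4a over Kdm4b at 0.19 ± 0.11, Kmt5a over Kmt5c at -0.28 ± 0.05, Setdb1 over Setdb2 at 0.78 ± 0.30, and Kdm5a over Kdm5b at 0.82 ± 0.27. Kmt2b over Kmt2d at 0.90 ± 0.20 and Nsd2 over Nsd1 at 0.93 ± 0.24 fell just short. Full-length transcripts alone widened Kmt2c over Kmt2d to -6.02 ± 0.14 and Suv39h2 over Setdb1 to -4.02 ± 0.01, and narrowed Kmt2b over Kmt2d to 0.20 ± 0.14.

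**Figure D3:**
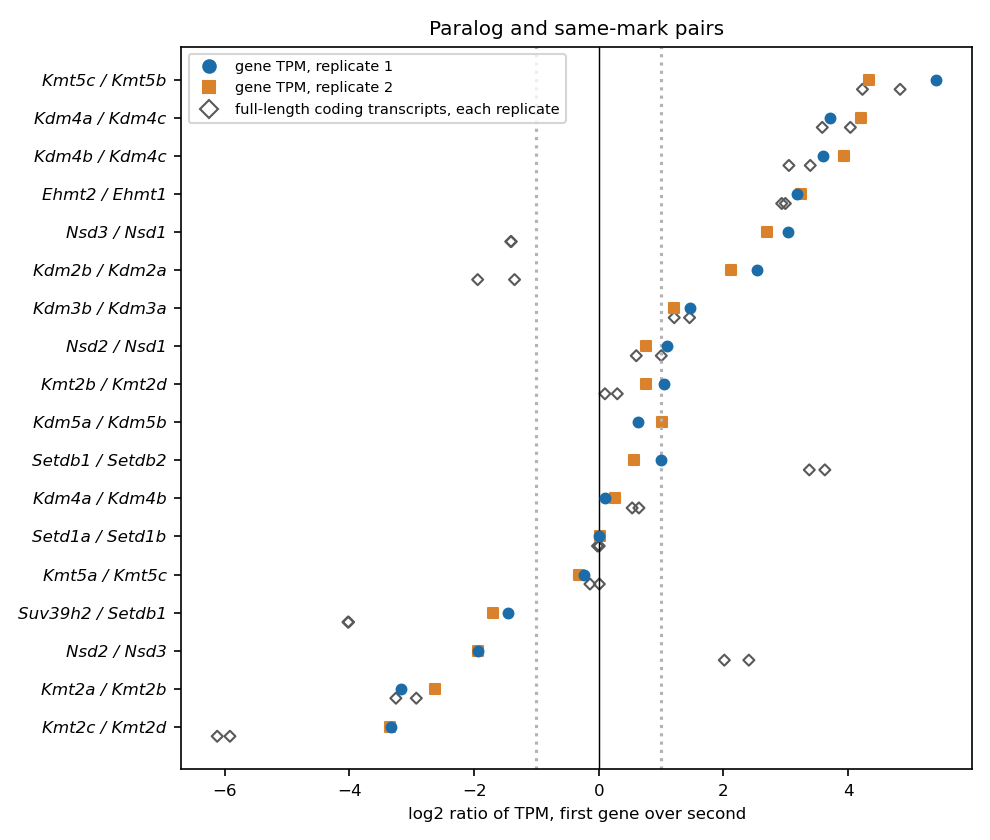
Log2 ratio of TPM, the first named gene over the second (horizontal axis), for 18 pairs in replicate 1 (circles) and replicate 2 (squares); open diamonds give the ratio from full-length coding transcripts alone, absent for Kdm5a over Kdm5b. Dotted lines mark a log2 ratio of 1 in either direction; the diamonds lie on the other side of 0 for Nsd3 over Nsd1, Nsd2 over Nsd3 and Kdm2b over Kdm2a.

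Measured in TPM, a large part of the RNA of these genes was assigned to transcripts whose annotated coding sequence is not full-length. A transcript was taken as full-length when its coding sequence was at least 90% of the longest annotated for the gene in GENCODE M21. Some coding models that fall short are annotated as incomplete at the start, the end or both, so their true coding length is not known. They include Kmt2b-206 (37.6% and 33.6% of the gene's TPM), Ehmt2-206 (28.6% and 25.7%), Kdm4b-205 (24.1% and 25.3%) and Dot1l-206 (23.44% and 24.35%). Among 36 detected members that could be scored, full-length transcripts held a median of 69.4% of the gene's TPM, against 91.6% over 9456 genes scored the same way. The mean shares lay closer together, at 63.9% and 69.1%. Their share was under 50% in both libraries for 11 of 36 members, beside 29.6% of all scored genes, so the count of low members was near the background. By estimated counts, which weigh long transcripts more, the medians were 91.3% for the members and 96.7% for all scored genes. The members have a median of 6 transcripts in the tables, against 4 for detected genes at large. Kdm5a and Setd4 could not be scored, because transcripts of the tables that are not in M21 held at least 5% of their TPM in a library.

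Nsd3 was mostly present in short coding forms. Nsd3-208, which encodes 655 codons and shares codons 1 to 629 of the 1446-codon enzyme, held 37.9% of the gene's TPM in replicate 1 and 40.8% in replicate 2. Nsd3-207, with 542 codons, held 32.8% and 29.7%. Full-length transcripts held 4.59% and 5.75%. The catalytic SET domain of Nsd3 lies in its C-terminal part, and the short protein made from such a form is known from human cells to bind chromatin without it. The ratio of Nsd3 to Nsd1 from full-length transcripts alone was -1.41 ± 0.01, and that of Nsd2 to Nsd3 was 2.21 ± 0.28, both opposite in sign to the gene-level ratios. The estimated counts of the gene assigned to full-length Nsd3 were 15.3% and 17.9%.

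Kdm2b showed the same kind of split at its other end. Kdm2b-201 encodes 776 codons, reaches codons 552 to 1309 of the 1309-codon form, and held 68.1% and 68.5% of the gene's TPM. The JmjC domain lies in the N-terminal part of Kdm2b, and the CXXC domain that binds CpG islands lies in the part that the short form keeps. Full-length transcripts held 5.84% and 4.85%, so the log2 ratio of Kdm2b to Kdm2a was -1.65 ± 0.42 on full-length transcripts alone. Kdm2a itself was mostly full-length, at 86.9% and 81.5%. By full-length TPM, Kdm2b moved from place 9 to place 26 among the scored members, Nsd3 from 15 to 32 and Setd5 from 10 to 25.

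In 9 of 38 detected members the most abundant transcript in each library was one not annotated as protein-coding, beside 17.6% of detected genes. For Ehmt2 it was the retained-intron transcript Ehmt2-205, with 38.7% and 36.7% of the TPM; 411 of its 1359 bases lie outside the exons of the longest coding form. Full-length Ehmt2 forms held 28.8% and 31.9%, and by estimated counts 55.8% and 59.6%. For Kdm5b the retained-intron transcript Kdm5b-202 held 86.4% and 82.8%, leaving 13.6% and 17.0% for full-length forms. For Kdm5a the retained-intron transcript Kdm5a-208 held 84.3% and 80.3% of the TPM, and 49.96% and 49.3% of the estimated counts.

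The other members of this kind differed in the class of the leading transcript. Transcripts annotated for nonsense-mediated decay led for Ehmt1 (59.2% and 50.9%), Kmt2e (57.6% and 64.1%), Kmt2a (36.8% and 44.1%) and Suv39h2 (52.0% and 78.3%). Transcripts with no annotated coding sequence led for Setd5 (51.9% and 46.1%) and Setdb2 (85.1% and 85.8%). Setdb1, in contrast to Setdb2, was 93.6% and 97.5% full-length, and the log2 ratio of Setdb1 to Setdb2 was 3.50 ± 0.18 on full-length transcripts alone. Some of these leading transcripts are short: Kmt2e-205 has 621 bases beside 7252 of the main coding form, and Ehmt1-212 has 756 beside 4290. Setd5-205 has 811 beside 6755, and Setdb2-204 has 410 beside 2995. The full-length Kmt2a forms together held 54.3% and 48.4% of its TPM. By estimated counts full-length forms held 42.5% and 39.5% of Setd5, 91.6% and 89.3% of Kmt2e and 64.97% and 63.1% of Setdb2. They held 73.1% and 76.1% of Ehmt1, 84.4% and 80.7% of Kmt2a and 27.9% and 31.4% of Suv39h2.

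The H4K20 writers and Dot1l were mixed. Full-length forms held 54.8% and 55.0% of the TPM of Kmt5c and 58.7% and 68.7% of that of Kmt5a, whose retained-intron transcript Kmt5a-203 held 39.1% and 28.7%. By estimated counts they held 77.3% and 78.6% of Kmt5c and 82.3% and 87.5% of Kmt5a. For Dot1l, full-length forms held 29.6% and 21.2% of the TPM and 49.8% and 40.3% of the estimated counts. The leading transcript of Dot1l was the full-length Dot1l-201 in replicate 1 and the decay-class Dot1l-205 in replicate 2. Kmt2c also changed its leading transcript, between incomplete models of its C-terminal and N-terminal parts. It was 15.9% and 13.6% full-length by TPM, and 37.9% and 33.7% by estimated counts. In the other 36 of 38 detected members the leading transcript was the same in both libraries, beside 90.9% of detected genes.

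At least 90% of the TPM was full-length in both libraries for 12 of 36 scored members, beside 49.1% of all scored genes. They included Kdm6b (99.9% and 100%), Setd1a (97.4% and 97.8%), Setd1b (98.7% and 98.8%), Kmt2d (96.3% and 94.1%) and Setd7 (99.0% and 94.1%). Setd2, Nsd1 and Kdm3b have 1 transcript each in the tables, so their 100% is set by the annotation. The RNA of Kmt2d was mostly assigned to a pair of forms of 5588 codons each, with lengths of 19823 and 19805 bases. Kmt2d-201 was given 78.5% and 51.6% and Kmt2d-202 17.8% and 42.5%. Whether reads can tell these forms apart was not tested.

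**Figure D4:**
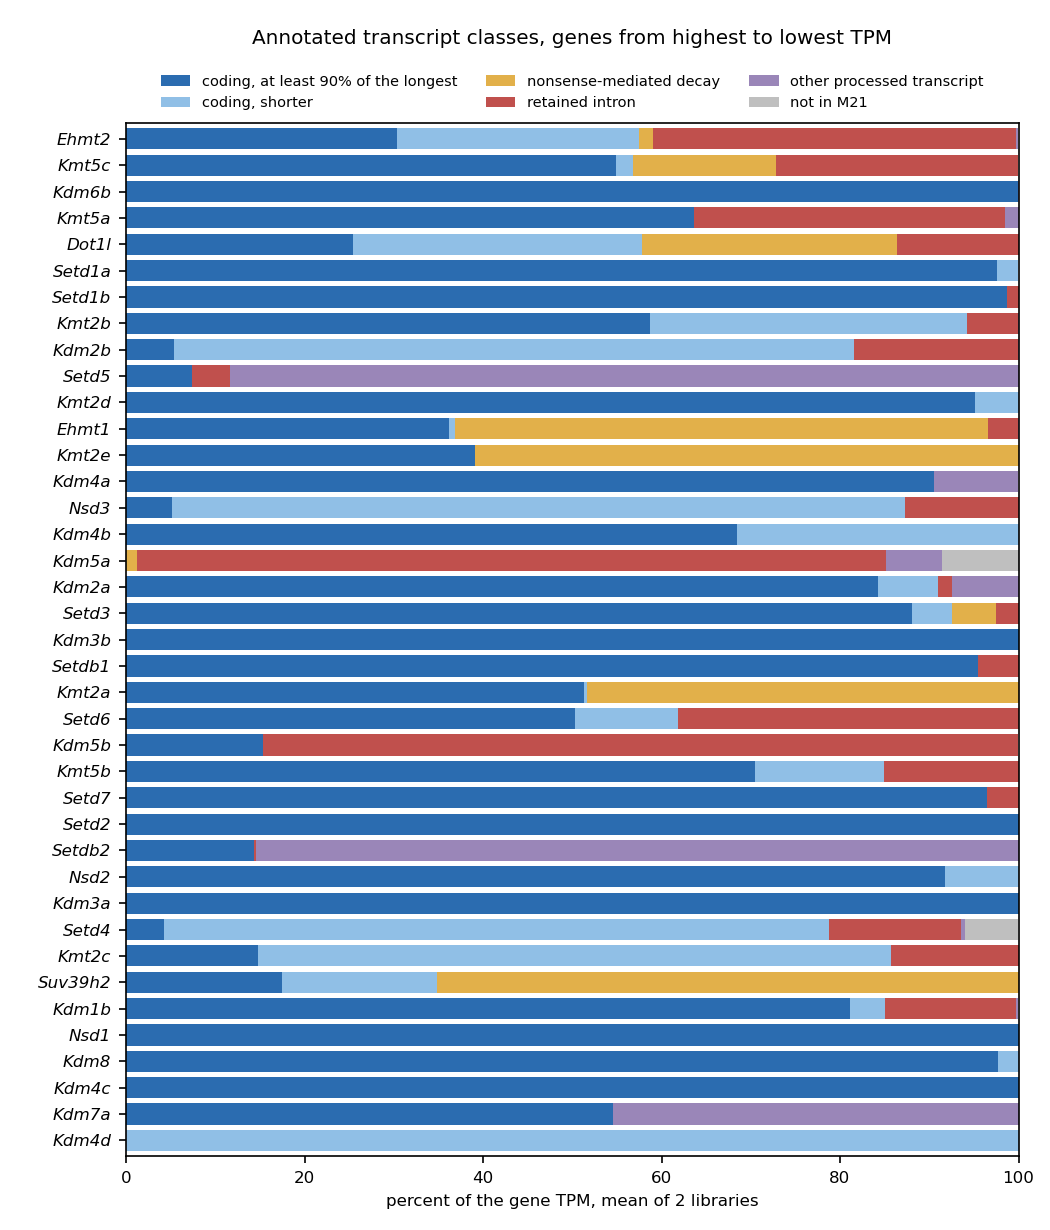
Percent of each member's TPM by annotated transcript class, mean of the 2 libraries, with members from the highest TPM (top) to the lowest. Dark blue is the full-length coding share, which is nearly the whole bar for Kdm6b and Setd1a and a small part of it for Kdm2b, Nsd3, Setd5, Kdm5b and Setdb2.

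These shares depend on how reads were divided among overlapping transcripts, which short reads do not always resolve. Exons of 16 members also overlap exons of a gene on the opposite strand in M21. Among these are Kdm6bos for Kdm6b, the highest eraser, and Rnf34 for Kdm2b. Others are Dek for Kdm1b, Srpk2 for Kmt2e, Nelfa for Nsd2 and Cers2 for Setdb1. Whether strand was used in quantification is not stated by the labels or headers.

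Between replicates the members differed little in size but mostly in the same direction. Scaled log2 CPM (counts scaled to a common library size with TMM factors) were compared as replicate 1 minus replicate 2 for the 32 members at a mean of 5 TPM or more. No member was more than 2-fold apart with separate intervals, beside 1.37% of 7456 genes at that level. However, 28 of 32 members were higher in replicate 2, beside 46.1% of those genes. The median difference was -0.27 for the members and 0.03 for all 7456 genes. With TPM in place of scaled CPM, 30 of 32 members and 59.2% of all genes were higher in replicate 2. With 1 library on each side there is no test of this shift.

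The largest differences were those of Kmt2a at -0.78, Kmt2d at -0.59 and Kmt2c at -0.56, all H3K4 writers of the Kmt2 group. Kmt2b, their relative, stood at -0.32. Setdb2 (-0.45), Kdm6b (-0.38) and Kmt5b (-0.38) came next. In log2 TPM the order differed: Kmt2a stood at -0.98, Kmt5b, an H4K20 writer, at -0.92, Kmt2d at -0.72 and Kmt2c at -0.71. The 4 of 32 members higher in replicate 1, beside 53.9% of all 7456 genes, were Kmt5c at 0.27, Kmt5a at 0.20, Nsd2 at 0.08 and Kdm2b at 0.01.

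The difference was also set beside transcript length. Across the 32 members Pearson's r between the log2 difference and log2 mean transcript length was -0.40 and Spearman's rho was -0.41; across 7456 genes they were -0.13 and -0.15. These are correlations across genes of the same 2 libraries, given as a description; genes are not independent replicates, and the gap between members and all genes was not tested. The marker genes moved too: the summed granulocyte and monocyte markers were higher in replicate 1 (30661 and 16848 TPM), the B cell markers likewise (60.3 and 19.2 TPM), and the erythro-megakaryocytic markers were higher in replicate 2 (1088 and 1667 TPM). The part of length and of these cells in the shift was not tested. In bulk RNA, fewer cells of a type and less RNA per cell cannot be told apart.

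**Figure D5:**
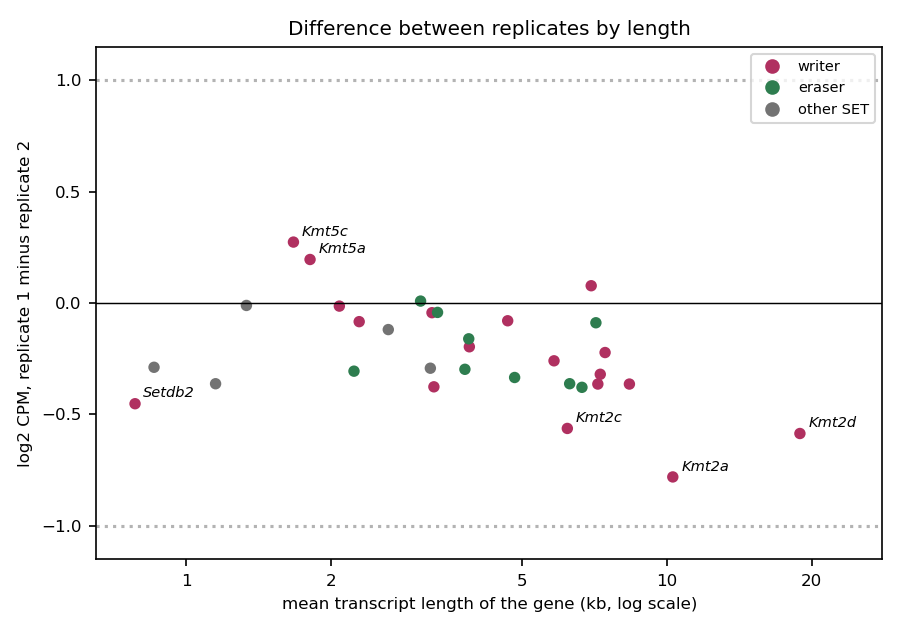
Log2 CPM of replicate 1 minus replicate 2 (vertical axis) against mean transcript length in kb on a log scale (horizontal axis) for the 32 members at a mean of 5 TPM or more, coloured by role. Dotted lines mark a 2-fold difference; no point lies beyond them, and 28 of 32 lie below 0.

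Other enzymes and partners of the same pathway, taken from lists of 20 genes each, were also mostly detected. Of the other methyltransferases and demethylases, 17 of 20 reached 1 TPM in both libraries, beside 48.1% of all autosomal protein-coding genes. The median of the 20 was 10.1 TPM, against 0.90 TPM over all those genes and 16.54 TPM over the detected ones. The highest by mean over all transcripts were Kdm5c and Jmjd6, a JmjC hydroxylase, at 67.0 and 72.0 TPM. Phf2, a relative of Kdm7a, at 45.4 and 52.2 TPM, and Riox1, a JmjC hydroxylase of the nucleolus, at 49.0 and 46.3 TPM, followed and changed order between libraries. Full-length coding transcripts held only 8.18% and 4.51% of the TPM of Jmjd6, but 100% of that of Phf2 and Riox1. The X-linked Kdm5c was not scored. Ezh2, the H3K27 writer of Polycomb complex PRC2, had 24.8 and 29.4 TPM and its paralog Ezh1 had 4.44 and 4.02 TPM. Suv39h1, the X-linked paralog of Suv39h2, had 20.4 and 21.2 TPM. Smyd1, a muscle enzyme, was at 0 in both libraries, and Hr and Setmar were below 1 TPM.

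All 20 subunits and partners were detected, beside 48.1% of all autosomal protein-coding genes. Their median was 48.6 TPM, against 16.54 TPM over detected genes. Trim28, the repressor that recruits Setdb1, had 387 and 428 TPM, far above Setdb1 itself. Wiz, a zinc-finger partner of Ehmt2 and Ehmt1, had 105 and 120 TPM. Men1, which encodes the menin subunit shared by Kmt2a and Kmt2b, had 130 and 110 TPM. Of the core subunits shared by the H3K4 writers, Wdr5 had 80.5 and 83.4 TPM, Ash2l 44.6 and 37.9 TPM, Dpy30 18.6 and 16.8 TPM, and Rbbp5 4.18 and 3.23 TPM. Mllt1, a partner of Dot1l, had 98.4 and 107 TPM, above its paralog Mllt3 at 8.95 and 6.59 TPM. These levels are over all transcripts. Full-length coding transcripts held 19.5% and 20.5% of Trim28, 27.2% and 26.9% of Wdr5, and 4.36% and 21.5% of Mllt3. They held 50.4% and 67.2% of Ash2l, 83.8% and 93.1% of Men1, and 88.3% and 86.1% of Rbbp5. Dpy30 and Mllt1 were at 100%, and Wiz was not scored.

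Promoter sequence was compared by its CpG content. In the RefSeq windows from 250 bases before to 50 bases after a start site, 28 of 39 members matched by symbol. The window nearest to the M21 gene start was taken, with no limit on distance. That of Setd5 begins at 113104685, while the gene begins at 113077365. Those of the 27 detected members held a median of 28 CG dinucleotides, against 22 over 7779 detected genes. The promoters ranged from 0 to 65 CG among the members, the same range as over the 15483 autosomal protein-coding genes with a window.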

How the data were processed

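Each library has 1 table of genes and 1 of transcripts. Per the labels, mm10 was the assembly; a deposited readme names GENCODE M4 as annotation. Which aligner and quantification program made the tables is not given in the sources used. Per the file headers, the authors gave an expected count per gene and transcript, a TPM (per effective length), an FPKM, and the percent of its gene that each transcript holds. The TPM intervals are also the authors'; their level is not stated.

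Gene identifiers were matched without version to GENCODE M21 (42462 of 43346; 884 unmatched). Expected counts were rounded for edgeR 4.0.16 (R 4.3.3; TMM factors 0.98 and 1.02; prior count 2), which estimated a common coefficient of variation of 21.8% between the libraries (members 14.0% to 40.4%). DESeq2 1.42.0 gave alternative size factors. Ratios used a pseudocount of 0.01 TPM. The scripts (Python 3.11.15, pandas 2.3.3) were tested on simulated data. With 1 group of 2 libraries no test between conditions exists. A count of 0 allows up to 0.0377 CPM in replicate 1 and 0.0459 CPM in replicate 2, counting error only. All members may be named, and other genes come from 2 pathway lists and 4 marker lists. Members and lists were chosen with earlier results of these data known. The planned protein comparison was not made.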

Additional observations from a re-analysis of the deposited data

How the results depend on the processing

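The number of members detected stayed between 30 (threshold of 5 TPM) and 38 under every setting tried, and was 38 without either replicate. Detection was not recounted on full-length coding transcripts. There Kmt2c had 0.62 and 0.87 TPM and Suv39h2 0.74 and 0.89 TPM, under 1 TPM in both libraries. Kdm7a (0.76 and 1.03 TPM) and Setdb2 (0.98 and 1.39 TPM) were under it in replicate 1. The median level was 12.3 FPKM, 59.7 CPM when not divided by length, and 8.89 TPM from full-length coding transcripts alone, a setting added after seeing the data; without 1 replicate it ranged from 13.96 to 16.38 TPM. Called pairs numbered 12 and 13 without 1 replicate and 11 with a pseudocount of 1 TPM. CPM and transcript subsets have no TPM interval, so there a call needed only its sign and size, a looser rule, which gave 10 pairs in CPM, 13 with protein-coding and 12 with full-length transcripts. Full-length transcripts alone turned Nsd3 over Nsd1 to -1.41, Nsd2 over Nsd3 to 2.21 and Kdm2b over Kdm2a to -1.65. Protein-coding transcripts alone turned Kdm5a over Kdm5b to -7.55; the tables' main long Kdm5a transcript, with 43.5% and 45.3% of its estimated counts, is not in M21 and so was not counted there. In CPM, without the interval condition, Nsd3 over Nsd1 (0.84) and Nsd2 over Nsd3 (-0.80) were no longer called and Setdb1 over Setdb2 (3.60) was; without replicate 1 Kdm5a over Kdm5b (1.01) was called, and without replicate 2 Kmt2b over Kmt2d (1.04) and Nsd2 over Nsd1 (1.09). At 1.5-fold, 2 members differed between replicates (Kmt2a and Kmt2d); with TPM, DESeq2 factors or no filter on low values the number was 0. The median full-length share was 82.7% when 50% of the longest coding sequence sufficed, 91.3% by estimated counts, and 68.6% to 74.9% without 1 replicate. Except where a construction is named, the cause was not tested. No paired analysis was possible because there is 1 group. Depth limits mainly Kdm4d, with an estimated 35 and 12 reads.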
